A study of Mus musculus with 10 samples.

Results

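A set of 10 genes of the CD28 and B7 families and of related inhibitory receptors was followed in the accessible chromatin of ILC2s: Icos, Cd28, Ctla4, Pdcd1, Cd274, Pdcd1lg2, Lag3, Havcr2, Tigit, and Btla. A region of the deposited table (build mm10) was taken when its centre lay inside such a gene or when the nearest RefSeq transcription start site was that of such a gene. This rule, which uses position and no measured value, gave 72 of the 50039 regions, with 22 for Icos, 11 for Tigit, 8 for Pdcd1, 7 for Pdcd1lg2, 6 for Btla, 5 for Cd28, 4 each for Ctla4 and Havcr2, 3 for Lag3, and 2 for Cd274. All 72 had counts and entered the tests. Group 2 innate lymphoid cells (ILC2s) were sorted from the lung and pancreas, the small intestine (SI), the large intestine (LI), and the bone marrow (BM) of wild-type male mice aged 6 weeks on a C57BL/6 background, and their open chromatin was profiled by ATAC-seq, in which a transposase cuts and tags accessible DNA. There were 2 libraries per tissue and 10 in all, each made from 50000 cells pooled from 16 mice (BM, lung, pancreas) or 10 mice (LI, SI), so that animals cannot be told apart within a library. The gates differed with the tissue. All were negative for the lineage markers CD3, B220, CD11b, CD11c, and FceRI. BM cells were ST2+ and CD25+, LI, lung, and pancreas cells were in addition CD45+ and CD127+, and SI cells were CD45+, CD127+, KLRG1+, and intermediate for Thy1, with neither ST2 nor CD25 used. A difference between SI or BM and the other tissues can therefore not be told apart from the difference between the gates. BM cells were also obtained by flushing bones and sorted on another instrument. The other tissues were digested with collagenase and separated on Percoll. A difference between BM and the rest can thus not be told apart from this handling either.

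ICOS and CD28 are costimulatory receptors of lymphocytes. Both signal through phosphoinositide 3-kinase when bound by B7 family ligands, and ICOS on ILC2s is known to support their survival and cytokine production. CTLA-4 competes with CD28 for the same ligands, and PD-1 (Pdcd1), which binds PD-L1 (Cd274) and PD-L2 (Pdcd1lg2), recruits phosphatases that dampen activation. LAG-3, TIM-3 (Havcr2), TIGIT, and BTLA are further inhibitory receptors, best known from exhausted T cells, and PD-1 is known to restrain activated ILC2s. Cd28, Ctla4, and Icos lie next to each other on chromosome 1 and are read in the same direction. Cd274 and Pdcd1lg2 are neighbours on chromosome 19.

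Total counts per library lay between 10282987 and 32797872, and a member region held between 10 and 2958 reads in a library. Replicates of a tissue differed by far more than counting noise, so no library was a copy of another. Chi-square per degree of freedom over regions was smallest for BM (16.4) and largest for LI (140), with pancreas at 129. Levels are given as normalised CPM, that is reads scaled to a common library total, after correction by the trimmed mean of M-values (TMM). The cells were checked against marker genes by summed CPM over each gene's regions. Gata3, the lineage-defining factor of ILC2s, lay between 204 and 315 CPM, and Rora between 651 and 1098. Il1rl1, which encodes ST2, was at 86.2 and 104 in SI and between 229 and 532 elsewhere, beside a gate that did not use ST2 in SI. The whole ILC2 list (11 of 11 genes) summed to 1649 and 2042 in SI and to 2060 to 3041 elsewhere. Against the mean of the other 4 tissues, 4 of its genes were lower in SI and 2 higher (8.72% and 7.93% of all genes). Of the 6 B cell markers only Cd79b and Ebf1 had a region, and their sum was 40.6 in SI replicate 1, 15.3 in SI replicate 2, and 8.35 to 19.2 elsewhere. The T cell list had regions for 8 of 11 genes, none of them Cd8a, Cd8b1, or Foxp3, with sums of 184 to 336. Summed levels were 38.2 to 60.2 for the myeloid list (4 of 6 genes), 99.7 to 300.2 for mast cells or basophils (2 of 5), 6.80 to 20.5 for ILC3s (2 of 4), 161 to 230 for ILC1s or NK cells (4 of 5), and 38.9 to 86.2 for epithelial cells (4 of 4).

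Sequences at the centre of 6 regions are shown because each has the smallest p of its gene's regions in the test among tissues described next. They are 200 bases of the plus strand of GRCm38 (RefSeq), outside any annotated exon, with coordinates counted from 1. The table does not state how its positions are counted, so a window may be off by 1 base. Regions are named by gene and distance of the centre from the start site of the curated transcript. Capitals mark matches to 8 motifs on either strand. The letters searched were AGATAA for the GATA factors, TGANTCA for the factor AP-1, TGTGGTT for the RUNX factors, AGGTCA for the ROR receptors, GGAAAA for the NFAT factors, TGGGAA for the Ikaros family (to which Aiolos belongs), TTCAAAG for the TCF factors, and GCGTG for the aryl hydrocarbon receptor AhR. Matches of the NFAT and Ikaros letters can overlap each other.
Icos +76.9 kb, chr1:61054701-61054900: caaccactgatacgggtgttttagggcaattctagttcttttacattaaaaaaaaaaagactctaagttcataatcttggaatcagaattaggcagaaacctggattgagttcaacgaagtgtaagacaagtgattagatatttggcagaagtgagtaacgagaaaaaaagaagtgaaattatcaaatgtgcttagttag
Cd28 +4.2 kb, chr1:60750507-60750706: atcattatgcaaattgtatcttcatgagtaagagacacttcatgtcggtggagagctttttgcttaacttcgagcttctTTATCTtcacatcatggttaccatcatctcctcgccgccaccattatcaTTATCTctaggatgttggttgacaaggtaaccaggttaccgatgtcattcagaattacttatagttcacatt
Ctla4 +4.5 kb, chr1:60913404-60913603: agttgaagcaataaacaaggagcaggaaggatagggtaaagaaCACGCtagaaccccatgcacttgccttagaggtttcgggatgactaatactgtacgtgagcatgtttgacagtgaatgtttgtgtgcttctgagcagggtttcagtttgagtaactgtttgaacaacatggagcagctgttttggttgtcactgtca
Pdcd1 +5.8 kb, chr1:94046612-94046811: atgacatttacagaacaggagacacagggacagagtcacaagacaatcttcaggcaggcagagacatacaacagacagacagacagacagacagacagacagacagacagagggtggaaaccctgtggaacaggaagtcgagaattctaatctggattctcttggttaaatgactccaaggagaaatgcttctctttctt
Pdcd1lg2 +12.7 kb, chr19:29423538-29423737: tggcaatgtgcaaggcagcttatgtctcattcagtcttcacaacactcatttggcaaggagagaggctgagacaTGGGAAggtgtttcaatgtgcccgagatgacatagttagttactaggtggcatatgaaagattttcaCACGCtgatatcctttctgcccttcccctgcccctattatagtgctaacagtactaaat
Tigit +2.5 kb, chr16:43661615-43661814: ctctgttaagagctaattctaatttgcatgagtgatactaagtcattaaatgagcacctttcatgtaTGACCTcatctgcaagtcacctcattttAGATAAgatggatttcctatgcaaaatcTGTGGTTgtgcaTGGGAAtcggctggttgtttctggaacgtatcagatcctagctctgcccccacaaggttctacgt
The Tigit window held 4 matches, 1 each for GATA, RUNX, ROR, and Ikaros, and the Cd28 window held the GATA letters at 2 places on the minus strand. The windows of Icos and Pdcd1 held none of the 8 motifs. Among equally long windows at the centres of all 50039 regions, the GATA letters were found in 12.7%, AP-1 in 14.9%, RUNX in 10.2%, ROR in 12.6%, NFAT in 13%, Ikaros in 14.3%, TCF in 3.53%, and AhR in 22.2%. Over the 72 member windows the shares were 20.8% for GATA and for AP-1, 16.7% for RUNX and for NFAT, 18.1% for ROR, 13.9% for Ikaros, 2.78% for TCF, and 12.5% for AhR. The median GC content was 43.4% in member regions and 49.8% in all regions, so the base composition of the 2 sets differed and the shares are a description.

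Member regions were most often highest in LI (28 of 72, where 15.7% of all regions were highest in LI) and most often lowest in BM (31 of 72, where 26.5% of all regions were lowest in BM). In an F test among the 5 tissues (edgeR quasi-likelihood on the counts of all regions, Benjamini-Hochberg adjusted p under 0.05), 42 of 72 member regions differed, where 44.2% of all 49981 regions tested did. The largest log2 difference between tissues had a median of 1.35 over member regions and 0.93 over all regions. At promoters (1000 bp upstream to 100 bp downstream of a start site), 5 of 8 member regions differed (31.7% of all promoters), and elsewhere 37 of 64 did (48.0% of all others). The promoters that passed were those of Cd28, Pdcd1, and Btla and both regions at the Tigit start sites. The promoters of Icos, Cd274, and Havcr2 did not pass (adjusted p = 0.774, 0.345, and 0.184). No region fell into the promoter window of Ctla4, Pdcd1lg2, or Lag3. Fewer cells with an open site and less opening per cell cannot be told apart in libraries of pooled cells.

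Each tissue was then set against the mean of the other 4. In BM, 27 member regions were lower and 6 higher, where 17.0% of all regions were lower and 14.9% higher. The summed T cell markers were lowest in BM as well (201 and 184 CPM, against 225 to 336 elsewhere). Of the 8 genes, 6 were lower and 0 higher in BM, where 14.1% and 11.8% of all genes were. Their median log2 difference was -1.08, and the part of T cell markers in the BM counts was not tested. In LI, 24 member regions were higher and 0 lower, against 8.80% and 1.27% of all regions. The LI replicates differed in a one-sided way, with replicate 1 above replicate 2 at only 16 of the 72 member regions. For the other tissues this number was 26 to 37. The test used a spread shared by all tissues, so the wide spread of the LI replicates was not weighed on its own. The number higher in LI was 13 when scaled by library size only (6.25% of all regions) and 14 after GC and width trends were taken out (7.87%). The number lower in LI was 0 in DESeq2 as well, where 2.84% of all regions were lower. At adjusted shares this small, few member regions would be lower at the rate of all regions, so the 0 lies near the background. At an unadjusted p under 0.05 the number was still 0, but the share of all regions lower at that threshold is not given here for comparison. In lung, 12 were higher and 5 lower (6.53% and 7.03% of all regions), and in pancreas 12 were higher and 2 lower (8.27% and 2.11%). In SI, 15 were lower and 6 higher (10.2% and 11.8% of all regions). Scaling by library size only gave 11 lower and 11 higher in SI, where 7.41% of all regions were lower and 18.5% higher. The same change gave 8 higher and 3 lower in pancreas (5.73% and 3.5% of all regions). Removal of trends in GC content and width gave 11 and 4 in pancreas (7.58% and 2.15%). Library size alone shifts the median of all regions by 0.20 for SI and 0.18 for lung, and by -0.15 for pancreas and -0.11 for LI (log2), and the directions given here are relative to TMM.

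**Figure D1:**
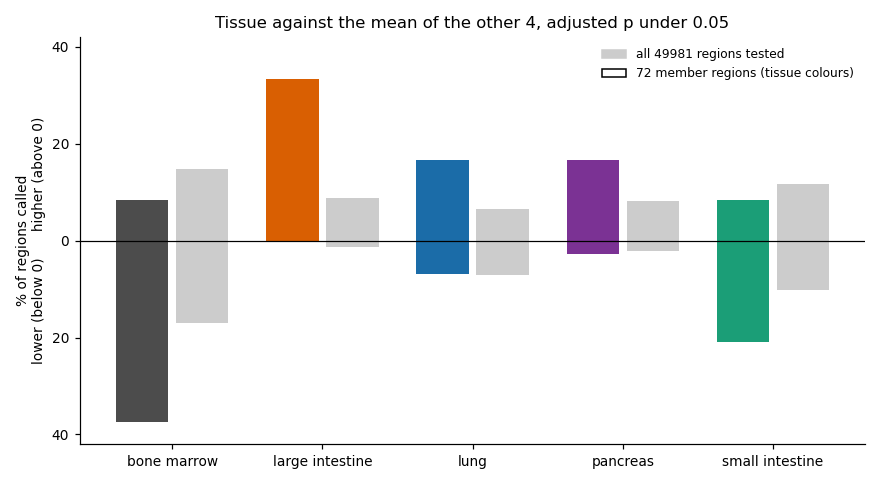
Share of regions called in each tissue against the mean of the other 4 (adjusted p under 0.05), higher above 0 and lower below 0, in percent, for the 72 member regions (coloured bars) and all 49981 regions tested (grey bars). The tallest coloured bars are BM lower (37.5%) and LI higher (33.3%), beside grey bars of 17.0% and 8.80%.

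The counts for a tissue rested in part on single libraries. Without LI replicate 2, 6 regions were higher in LI (14 without LI replicate 1 or pancreas replicate 1). Without lung replicate 2, 1 region was higher and 0 lower in lung (5 and 3 without replicate 1, and 7, 7, 6, and 7 higher without BM replicate 2, LI replicate 1, pancreas replicate 1, or pancreas replicate 2). In pancreas, fewer were higher and fewer lower without replicate 1 or replicate 2, and in BM fewer were higher without replicate 2. The counts for pancreas and BM fell beside smaller shares of all regions. The share of all regions called fell with them, to 3.64% higher in LI without LI replicate 2 and to 1.43% higher in lung without lung replicate 2.

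Fewer regions separated a tissue from each of the other 4 in all 4 pairwise contrasts. BM was below each other tissue at 9 member regions (4.11% of all regions), of which 5 were at Tigit, 2 at Pdcd1lg2, and 1 each at Cd274 and Havcr2. SI was below each other tissue at 5 (1.76% of all regions), of which 3 were at Icos and 1 each at Pdcd1 and Pdcd1lg2. A single region stood above each other tissue in BM (Icos +44.6 kb, 1.98% of all regions), in LI (Icos +61.6 kb, 0.208%), in lung (Pdcd1 +5.8 kb, 0.394%), and in SI (Lag3 +3.7 kb, 0.590%). None did in pancreas, where 0.250% of all regions did. Because peaks were called in these same libraries, such a region may be listed only through the tissue where it is high. No member region was below each other tissue in LI, lung, or pancreas, where 0.00200%, 0.374%, and 0.0840% of all regions were. The heat map of the 72 regions shows BM pale to blue over Cd28, Havcr2, and Tigit, and SI dark blue at a few sites of Icos and Pdcd1lg2.

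**Figure D2:**
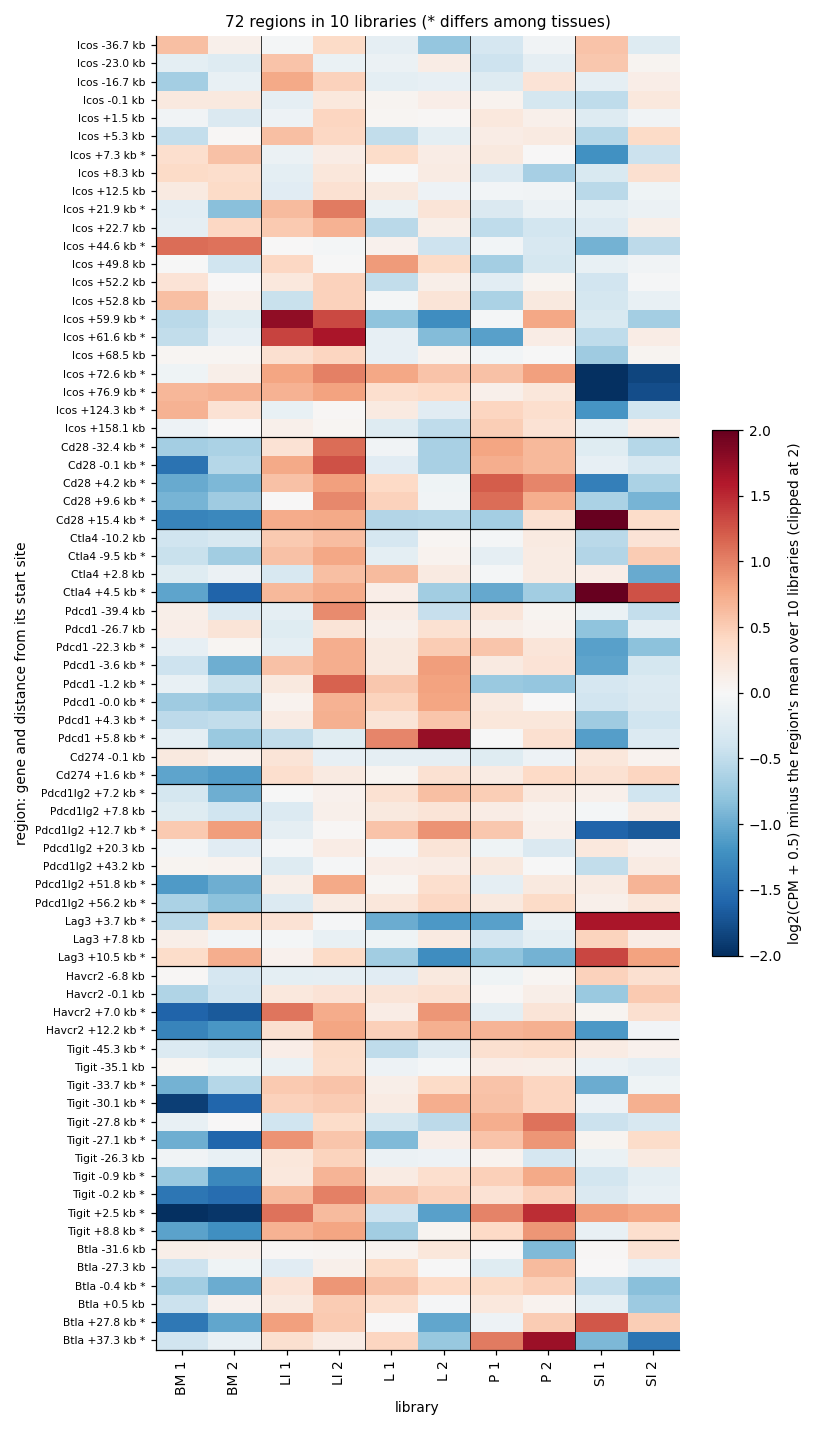
Each row is a region, named by its gene and its distance from the start site, and each column is a library. Colour gives log2(CPM + 0.5) minus the mean of the row over the 10 libraries, from -2 (blue) to 2 (red), and stars mark the 42 regions that differ among tissues. BM columns are blue at Tigit and Cd28 rows, and SI columns are dark blue at Icos +72.6 kb, Icos +76.9 kb, and Pdcd1lg2 +12.7 kb.

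When counts were summed over the regions of a gene, 8 of the 10 genes differed among tissues, where 35.5% of 19267 genes did. Cd274 (adjusted p = 0.208) and Pdcd1lg2 (adjusted p = 0.0883) did not pass, and the latter passed with DESeq2 (0.0472) and without SI replicate 2 (0.0302). Cd274 passed (0.000387) when regions were given to genes by the nearest start site alone. Icos no longer passed without SI replicate 1 (0.0844) or when scaled by library size only (0.153). Per kb of region, the mean level over the 5 tissues was highest in Cd274 (40.0 CPM per kb), Pdcd1 (37.3), Tigit (35.6), and Pdcd1lg2 (34.4). It was lower in Cd28 (27.4), Havcr2 (24.8), Lag3 (24.2), Icos (20.1), Ctla4 (13.8), and Btla (12.6). Summed levels below are in CPM.

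Cd28 had the widest range. Its summed level was 28.1 and 36.8 in BM, 53.0 and 42.9 in SI, 139 and 122 in pancreas, 79.3 and 56.1 in lung, and 94.3 and 144 in LI. Pancreas exceeded BM by 2.01 ± 0.22 (log2 ± SE, adjusted p = 1.6e-05), and LI exceeded lung by 0.82 ± 0.21 (adjusted p = 0.0262). In the order pancreas, LI, lung, SI, BM, the step from LI to lung was the one step that passed. Icos was 245 and 258 in BM, 135 and 195 in SI, 251 and 253 in pancreas, 244 and 236 in lung, and 272 and 317 in LI. SI lay below every other tissue (as in 1.29% of all genes), by 0.54 ± 0.17 from lung (adjusted p = 0.0430) and by 0.84 ± 0.17 from LI (adjusted p = 0.00648), and the other 4 tissues were not told apart. Ctla4 ran from 17.8 and 18.0 in BM to 37.0 and 46.2 in LI, a log2 difference of 1.22 ± 0.18 (adjusted p = 0.00019), and BM lay below each other tissue, as in 3.20% of all genes.

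Pdcd1 was 116 and 119 in BM, 83.1 and 106 in SI, 187 and 178 in pancreas, 191 and 251 in lung, and 152 and 248 in LI. Lung exceeded SI by 1.23 ± 0.21 (adjusted p = 0.000738), BM and SI were not told apart (0.31 ± 0.20, adjusted p = 0.316), and both lay below lung, LI, and pancreas. Havcr2 and Tigit were lowest in BM, with 30.8 and 33.6 for Havcr2 against 43.4 to 91.8 elsewhere and 162 and 157 for Tigit against 215 to 346 elsewhere. For both genes BM differed from each other tissue, by 0.88 ± 0.21 from SI for Havcr2 (adjusted p = 0.00799) and by 0.49 ± 0.15 from SI for Tigit (adjusted p = 0.0344). Btla was lowest in BM as well (21.5 and 26.0) and highest in LI (46.8 and 57.6), with a difference of 1.14 ± 0.21 (adjusted p = 0.0012). SI and BM were not told apart there (0.51 ± 0.21, adjusted p = 0.102). Lag3 went the other way. SI had 72.6 and 54.1, BM 38.9 and 44.3, LI 38.4 and 41.2, lung 28.8 and 29.8, and pancreas 25.5 and 27.9, and SI exceeded each other tissue (as in 0.363% of all genes), BM by 0.61 ± 0.17 (adjusted p = 0.0221).

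**Figure D3:**
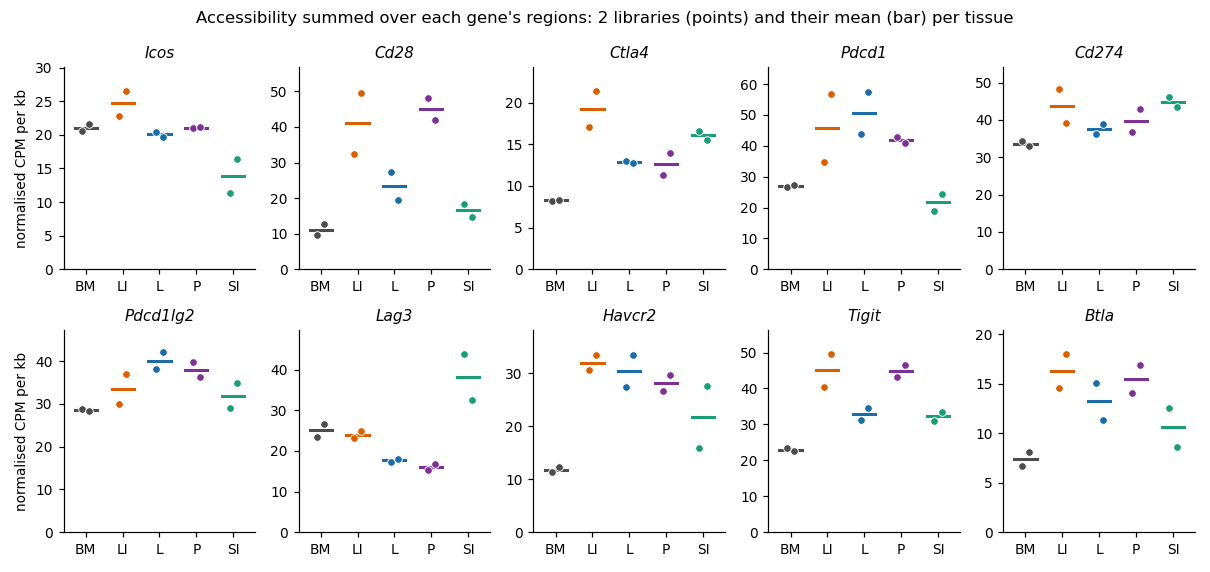
Normalised CPM per kb of region, summed over the regions of each gene, with tissues on the horizontal axis, points for the 2 libraries of a tissue, and a bar at their mean. BM is lowest in Cd28, Ctla4, Havcr2, Tigit, and Btla, and SI is lowest in Icos and Pdcd1 and highest in Lag3.

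The promoter of Icos did not pass the test among tissues, and the 8 regions that did lay in intron 1, in the 3′ UTR, and beyond the 3′ end of the gene. They were 8 of 22 (36.4%), a smaller share than the 44.2% of all regions. The promoter region (chr1:60977597-60978105) had 17.3 and 17.3 CPM in BM, 10.4 and 17.5 in SI, 15.9 and 11.8 in pancreas, 15.6 and 16.6 in lung, and 13.2 and 17.6 in LI. Its largest difference, BM over pancreas, was 0.31 ± 0.27 (log2 ± SE, adjusted p = 0.418), and the tissues overlap. By contrast, the region +76.9 kb (chr1:61054397-61055204) had 31.8 and 32.6 in BM, 4.14 and 5.50 in SI, 21.6 and 23.4 in pancreas, 25.4 and 26.4 in lung, and 32.6 and 35.1 in LI. LI exceeded SI by 2.80 ± 0.22 (adjusted p = 6.0e-06), and SI lay far below each other tissue with no overlap. Its neighbour at +72.6 kb (chr1:61050273-61050802) had 7.49 and 8.65 in BM, 0.770 and 1.88 in SI, 12.1 and 14.5 in pancreas, 13.9 and 12.0 in lung, and 14.1 and 16.5 in LI, with LI above SI by 3.49 ± 0.34 (adjusted p = 2.4e-05). This region lay a little lower in BM than in LI too (-0.93 ± 0.30, adjusted p = 0.0254).

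Regions at +59.9 kb and +61.6 kb were weak except in LI. The region at +59.9 kb (chr1:61037590-61038090) had 9.33 and 6.65 CPM in LI, 2.30 and 4.42 in pancreas, 1.47 and 1.93 in BM, 1.83 and 1.29 in SI, and 1.14 and 0.718 in lung. The region at +61.6 kb (chr1:61039248-61039748) had 7.67 and 9.38 in LI and 1.00 to 3.03 in the other 8 libraries. LI exceeded lung by 3.11 ± 0.46 (adjusted p = 0.00048) and by 2.26 ± 0.48 (adjusted p = 0.00566), and the latter did not pass without lung replicate 2 (1.86, adjusted p = 0.107). In intron 1, the region at +7.3 kb (chr1:60984958-60985497) was the strongest of the locus, with 42.8 and 50.9 in BM, 14.3 and 24.9 in SI, 39.0 and 34.0 in pancreas, 43.8 and 37.6 in lung, and 31.2 and 37.4 in LI. BM exceeded SI by 1.25 ± 0.24 (adjusted p = 0.00116), and SI was below each other tissue. Of the remaining 16 regions 3 passed the F test (+21.9 kb in the 3′ UTR of exon 5, +44.6 kb, and +124.3 kb), with LI highest in the first of these and BM in the other two. Of all 22 regions, LI was highest at 11 and SI lowest at 9, where 15.7% and 20.3% of all regions were.

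All 5 regions of Cd28 differed among tissues and were lowest in BM, where 44.2% of all regions differed and 26.5% were lowest in BM. The promoter region (chr1:60746060-60746588) had 29.4 and 42.4 CPM in LI, 28.7 and 27.2 in pancreas, 15.2 and 13.6 in SI, 14.6 and 10.8 in lung, and 5.87 and 11.4 in BM. LI exceeded BM by 2.06 ± 0.29 (adjusted p = 0.000102), and LI and pancreas did not overlap with the other 3 tissues. In intron 1, the region at +4.2 kb (chr1:60750337-60750875) had 48.1 and 40.9 in pancreas, while LI had 31.1 and 36.5, lung 27.2 and 19.3, BM 9.88 and 10.7, and SI 7.65 and 13. Pancreas exceeded BM by 2.11 ± 0.26 (adjusted p = 4.1e-05), lung exceeded SI by 1.16 ± 0.25 (adjusted p = 0.00354), and SI and BM overlap. The region at +9.6 kb (chr1:60755557-60756334) followed the same order, with 48.5 and 37.1 in pancreas and 11.3 and 13.3 in BM (1.8 ± 0.29, adjusted p = 0.000432). Upstream at -32.4 kb, LI (6.10 and 11.3) exceeded BM (2.89 and 2.99) by 1.58 ± 0.35 (adjusted p = 0.00308), which did not pass without LI replicate 2 (1.06, adjusted p = 0.0801).

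A weak region at +15.4 kb in the same intron (chr1:60761515-60762015) had another pattern, with 12.0 and 2.82 CPM in SI, 3.84 and 3.87 in LI, 1.12 and 2.70 in pancreas, 1.22 and 1.24 in lung, and 0.538 and 0.552 in BM. SI replicate 1 stood above all other libraries, whereas SI replicate 2 lay below both LI libraries. SI against the mean of the other 4 was 2.32 ± 0.39 (adjusted p = 0.000444), and without SI replicate 1 it was 0.90 ± 0.48 (adjusted p = 0.237). SI replicate 1 was also the library with the highest sum of B cell markers given above, with Ebf1 at 32.1 CPM against 8.68 in SI replicate 2. The summed myeloid markers were at 60.2 and 42.7 in the SI libraries, and the summed epithelial markers at 67.7 and 73.0. The same values stand beside the other regions that were higher in SI, at Ctla4 +4.5 kb, Lag3 +3.7 and +10.5 kb, Tigit +2.5 kb, and Btla +27.8 kb. Their part in these regions was not tested.

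**Figure D4:**
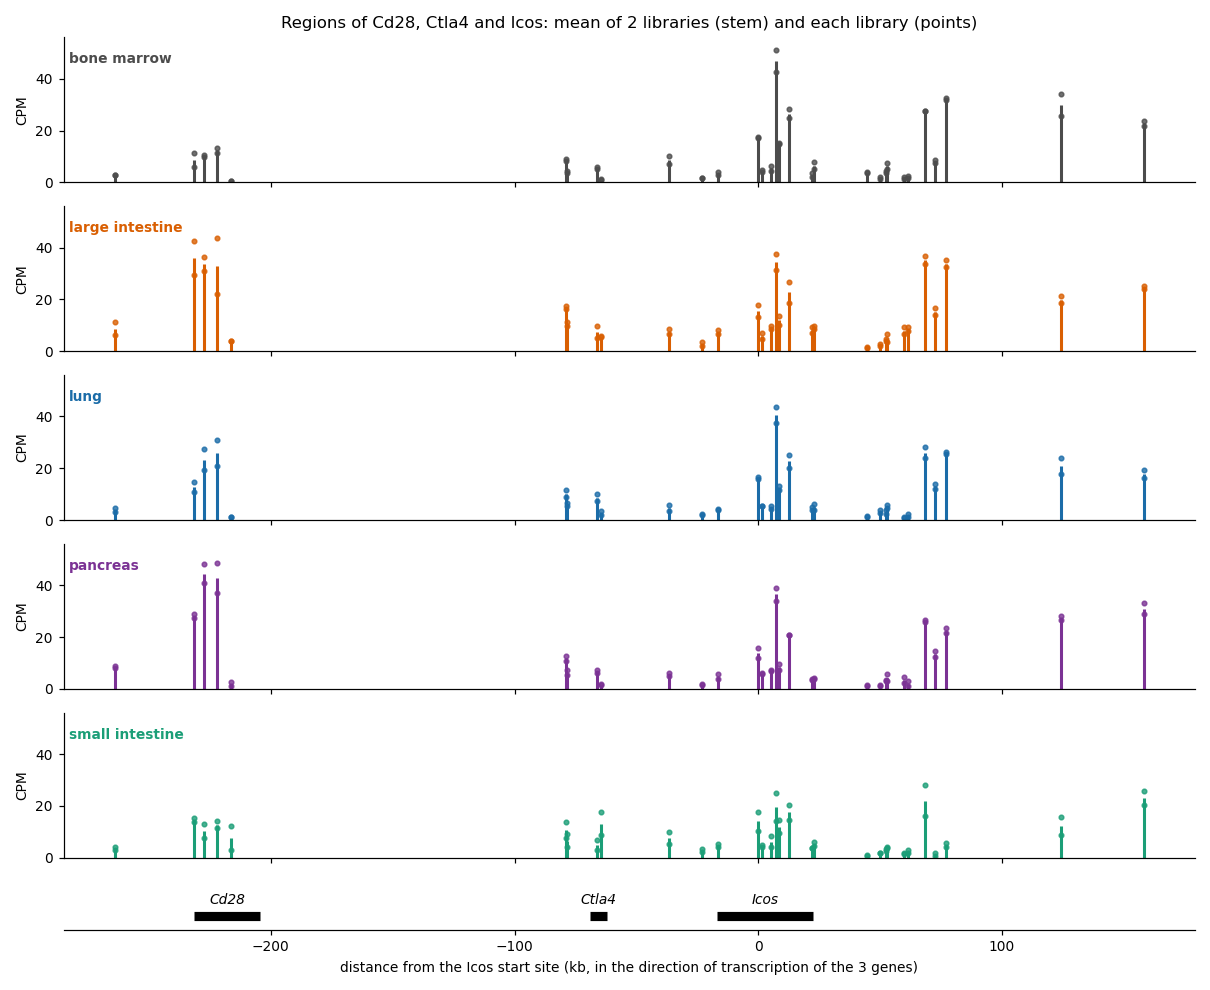
Normalised CPM (vertical axis, linear) of the regions of Cd28, Ctla4, and Icos against the distance from the Icos start site in kb, in 1 panel per tissue. Stems are means of 2 libraries, points are libraries, and black bars are the genes. The Cd28 stems are short in BM and SI and tall in LI and pancreas, and the stems at +72.6 and +76.9 kb nearly vanish in SI, where the Icos promoter at 0 does not.

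The 4 regions of Ctla4 were weak, and none lay at its promoter. The number depends on the gene models. With curated RefSeq transcripts only, 12 regions go to Ctla4, and 8 in place of 5 to Cd28. The added regions are not described here. In intron 3, the region at +4.5 kb (chr1:60913253-60913753) had 17.6 and 8.64 CPM in SI, while LI had 5.40 and 5.82, lung 3.65 and 1.82, pancreas 1.35 and 1.83, and BM 1.32 and 0.736. Both SI libraries stood above the other 8, and SI exceeded BM by 3.67 ± 0.45 (adjusted p = 3.9e-05). The difference between SI and LI did not pass (1.22 ± 0.39, adjusted p = 0.067). SI against the mean of the other 4 was 2.56 ± 0.28, and 1.92 ± 0.35 without SI replicate 1 (adjusted p = 0.000915). Upstream at -9.5 kb, LI (9.68 and 11.1) exceeded BM (4.45 and 3.68) by 1.36 ± 0.35 (adjusted p = 0.00783). The F test of this region (adjusted p = 0.0434) held in only 2 of the 10 fits that left out a library, those without an SI library, and not with the GC and width trend removed.

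The Pdcd1 locus was more open in lung, LI, and pancreas than in BM and SI, with another order of tissues at single sites. In intron 1, the region at +5.8 kb (chr1:94046447-94046975) had 27.2 and 46.4 CPM in lung, 13.5 and 17.0 in pancreas, 11.7 and 7.91 in BM, 9.41 and 11.3 in LI, and 6.02 and 11.1 in SI. Lung lay above each other tissue with no overlap, by 1.28 ± 0.32 from pancreas (adjusted p = 0.0260) and by 2.09 ± 0.32 from SI (adjusted p = 0.000238). The stronger region of the same intron, at +4.3 kb (chr1:94047902-94048530), had 48.1 and 59.5 in lung, 45.2 and 66.1 in LI, 47.2 and 47.0 in pancreas, 27.9 and 28.5 in BM, and 24.4 and 30.5 in SI. LI exceeded SI by 1.02 ± 0.21 (adjusted p = 0.00672), which did not pass without LI replicate 2 (0.73, adjusted p = 0.108). At the promoter region (chr1:94052323-94052823), lung had 10.4 and 13.3, LI 7.85 and 12.3, pancreas 8.48 and 7.55, SI 5.58 and 6.03, and BM 4.36 and 4.10. Lung exceeded BM by 1.49 ± 0.28 (adjusted p = 0.0013), and BM lay below lung, LI, and pancreas.

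Further upstream the order changed from site to site. At -1.2 kb (chr1:94053493-94053996), LI had 9.15 and 18.6 CPM and lung 11.8 and 14.2, whereas pancreas had only 4.53 and 4.42, the lowest of the 5 tissues. LI exceeded pancreas by 1.64 ± 0.32 (adjusted p = 0.00998). This did not pass without LI replicate 2 (1.02, adjusted p = 0.2) or without either pancreas library (adjusted p = 0.153 and 0.0875). At -3.6 kb (chr1:94055880-94056448), LI (17.3 and 19.2), lung (13.1 and 20.8), and pancreas (13 and 13.8) each exceeded BM (8.47 and 5.52) and SI (5.25 and 8.81). The strongest region of the locus, at -22.3 kb (chr1:94074602-94075194), was low in SI alone, with 22.0 and 26.7 there and 41.5 to 79.2 in the other 8 libraries. Pancreas exceeded SI by 1.38 ± 0.26 (adjusted p = 0.0013), and SI lay below each other tissue.

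**Figure D5:**
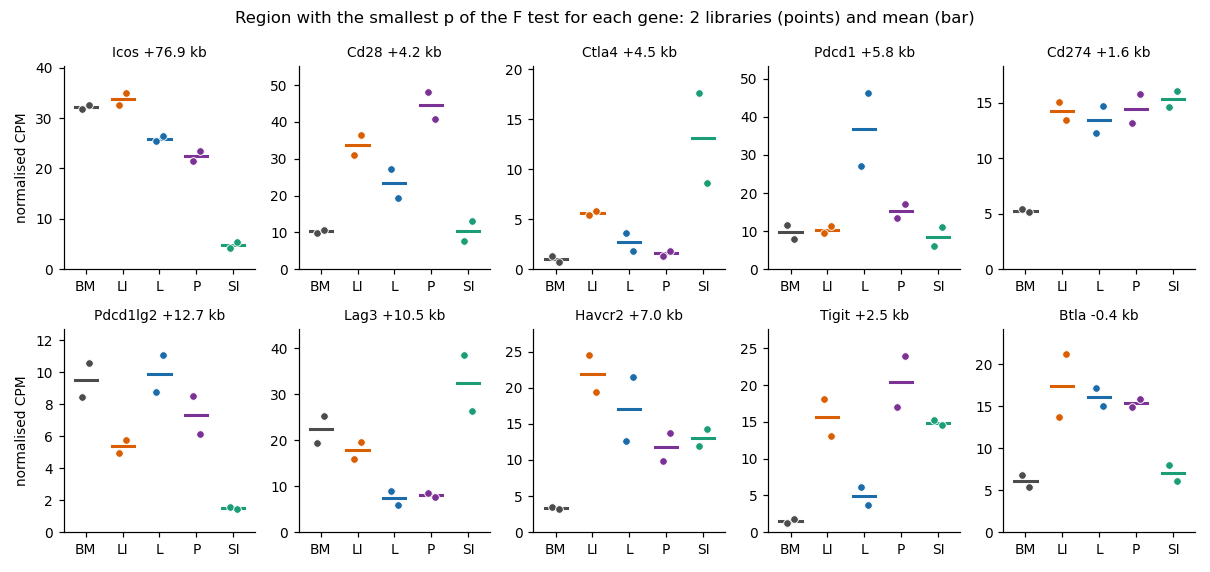
Normalised CPM of the region with the smallest p of the F test for each gene, with tissues on the horizontal axis, points for the 2 libraries, and a bar at their mean. Single tissues stand apart in some panels, such as SI at Icos +76.9 kb (4.14 and 5.50), lung at Pdcd1 +5.8 kb (27.2 and 46.4), and BM at Cd274 +1.6 kb (5.38 and 5.15).

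The genes of the PD-1 ligands were open in all 5 tissues and differed at single intronic sites. The Cd274 promoter region (chr19:29367060-29367571), whose nearest start site is that of the neighbour Plgrkt, lay between 25.1 and 35.8 CPM in all libraries. In intron 1, the region at +1.6 kb (chr19:29368757-29369317) had 5.38 and 5.15 in BM and 12.2 to 16.1 in the other 8 libraries. BM was below each other tissue, by 1.54 ± 0.24 from SI (adjusted p = 0.000225), while the other 4 were not told apart. All 7 regions of Pdcd1lg2 lay in its introns. The strongest, at +43.2 kb in intron 4, did not pass (45.8 to 74.2, F test adjusted p = 0.638). At +12.7 kb in intron 2 (chr19:29423364-29423910), SI had 1.54 and 1.43, LI 4.97 and 5.78, pancreas 8.48 and 6.15, BM 8.42 and 10.5, and lung 8.74 and 11. Lung exceeded SI by 2.74 ± 0.31 (adjusted p = 1.6e-05), and SI was below each other tissue. The regions at +51.8 kb and +56.2 kb in intron 5 were lowest in BM, with 2.01 and 2.30 against 4.36 to 8.78 elsewhere, and 8.03 and 6.99 against 10.4 to 17.2 elsewhere. The F test of the first did not pass without BM replicate 1 (adjusted p = 0.0651), and that of the second not without BM replicate 2 (adjusted p = 0.0935). At +7.2 kb lung exceeded BM by 1.14 ± 0.27 (adjusted p = 0.00604), which did not pass without BM replicate 2 (0.85, adjusted p = 0.0895) or lung replicate 2 (0.99, adjusted p = 0.0775).

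LAG-3 is a CD4-related receptor for MHC class II, and its gene lies next to Cd4. SI was highest at all 3 regions of Lag3, where 24.0% of all regions were highest in SI. At +10.5 kb, beyond the 3′ end, SI had 38.5 and 26.4 CPM, BM 19.5 and 25.2, LI 16.0 and 19.6, pancreas 8.42 and 7.55, and lung 9.06 and 6.02. SI exceeded lung by 2.11 ± 0.27 (adjusted p = 4.9e-05), and BM and LI each exceeded lung and pancreas. In intron 5, the weak region at +3.7 kb (chr6:124907728-124908228) had 6.74 and 6.69 in SI, 2.35 and 1.78 in LI, 1.1 and 2.5 in BM, 0.589 and 1.62 in pancreas, and 0.666 and 0.552 in lung. SI was above each other tissue with no overlap. SI against the mean of the other 4 was 2.44 ± 0.34 at this site, and 2.40 ± 0.45 without SI replicate 1 (adjusted p = 0.00127). The third region, at +7.8 kb, lay between 15.8 and 27.5 and did not pass.

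TIM-3 binds galectin-9 and phosphatidylserine. BM was below the mean of the other 4 tissues at both intronic regions (-2.22 and -1.65) and at the promoter (-0.65, adjusted p = 0.0471), where the test among tissues did not pass. At +7.0 kb in intron 3 (chr11:46461359-46462416), BM had 3.43 and 3.22 CPM, pancreas 9.89 and 13.7, SI 11.9 and 14.3, lung 12.6 and 21.5, and LI 24.5 and 19.4. LI exceeded BM by 2.72 ± 0.30 (adjusted p = 1.3e-05), and BM was below each other tissue. At +12.2 kb in intron 4 (chr11:46466806-46467362), BM had 6.75 and 7.55 and SI 7.61 and 17.0, against 22.1 to 30.7 in the 6 other libraries. Pancreas exceeded BM by 2.00 ± 0.31 (adjusted p = 0.000263), and the difference between SI and BM did not pass (0.79 ± 0.30, adjusted p = 0.0653). At the promoter region (chr11:46454552-46455067), the SI libraries were the lowest and the highest of all, 15.7 and 38.4, and BM had 17.4 and 20.3. Lung exceeded BM there by 0.78 ± 0.29 (adjusted p = 0.0705), and this passed without SI replicate 1 (adjusted p = 0.00281), without SI replicate 2 (0.00313), and when scaled by library size only (0.0201).

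TIGIT binds the nectin-like ligand CD155. BM was below the mean of the other 4 tissues at 8 of the 11 Tigit regions, where 17.0% of all regions were. In intron 2, the region at +2.5 kb (chr16:43661449-43661980) had 17.0 and 23.9 CPM in pancreas, 18.1 and 13.1 in LI, 15.2 and 14.5 in SI, 6.12 and 3.64 in lung, and 1.27 and 1.79 in BM. Pancreas exceeded BM by 3.72 ± 0.34 (adjusted p = 2.9e-06), SI exceeded lung by 1.62 ± 0.30 (adjusted p = 0.000980), and lung exceeded BM by 1.65 ± 0.33 (adjusted p = 0.00209). The promoter region (chr16:43664067-43664667) was highest in LI with 33.3 and 43.3, and lung had 32.2 and 29.6, pancreas 26.1 and 29.6, SI 17.3 and 19.2, and BM 7.54 and 7.09. LI exceeded BM by 2.39 ± 0.22 (adjusted p = 3.0e-06), and pancreas exceeded SI by 0.60 ± 0.21 (adjusted p = 0.0485), so that lung stood with the high tissues at the promoter and below them in intron 2. A weaker promoter region at -0.9 kb (chr16:43664783-43665316) had 11.2 and 13.7 in pancreas and 4.55 and 2.95 in BM (1.73 ± 0.29, adjusted p = 0.000607). At +8.8 kb in intron 3 (chr16:43655067-43655674), BM had 4.31 and 3.82 and the others 5.72 to 18.2, and LI exceeded BM by 2.02 ± 0.31 (adjusted p = 0.000203).

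Upstream of Tigit, a run of 7 regions between -45.3 kb and -26.3 kb held sites that differed among tissues and sites that did not pass. At -30.1 kb (chr16:43694029-43694529), BM had 2.25 and 2.85 CPM against 8.95 to 16.2 elsewhere, and pancreas exceeded BM by 2.44 ± 0.32 (adjusted p = 6.9e-05). At -27.1 kb (chr16:43690978-43691536), BM had 4.01 and 2.48 against 4.35 to 16.0 elsewhere, and pancreas exceeded BM by 2.14 ± 0.36 (adjusted p = 0.000511). At -27.8 kb (chr16:43691681-43692206) pancreas was high instead, with 13.7 and 17.7 against 5.47 to 10.6 in the other 8 libraries, and exceeded lung by 1.42 ± 0.29 (adjusted p = 0.00916). In the same run, the region with the most counts of all 72, at -35.1 kb (17938 reads in all libraries), lay between 74.1 and 107 CPM and did not pass (F test adjusted p = 0.567).

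BTLA binds HVEM (Tnfrsf14). Its promoter region (chr16:45223670-45224197) had 13.7 and 21.2 CPM in LI, 14.8 and 15.9 in pancreas, 17.1 and 15.0 in lung, 7.94 and 6.10 in SI, and 6.80 and 5.43 in BM. LI exceeded BM by 1.52 ± 0.27 (adjusted p = 0.000609), and LI, lung, and pancreas lay above SI and BM with no overlap. At the other end of the gene, the region at +27.8 kb in the 3′ UTR of exon 6 had 16.1 and 9.34 in SI, 11.9 and 9.60 in LI, 6.07 and 9.49 in pancreas, 6.59 and 2.93 in lung, and 2.1 and 2.9 in BM. SI exceeded BM by 2.34 ± 0.40 (adjusted p = 0.000475), so SI, low at the promoter, was high here. SI against the mean of the other 4 was 1.18 ± 0.27, and 0.71 ± 0.33 without SI replicate 1 (adjusted p = 0.17). Downstream at +37.3 kb (chr16:45261410-45261910), pancreas had 4.89 and 8.09 and SI 0.915 and 0.453, a difference of 3.25 ± 0.56 (adjusted p = 0.000699), with 1.05 to 3.06 in the other 6 libraries.

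The genes whose log2 CPM was most like that of a member over the 10 libraries were listed by Pearson's r, as a description of libraries that share depth and tissue. They were Cast, Ndufa4, and Gabpa for Icos (r = 0.95 to 0.93), Moxd2, Gm31018, and St3gal1 for Cd28 (0.99 to 0.97), and Slain1, Tceal3, and Gm51558 for Ctla4 (0.98 to 0.97). For Pdcd1 they were Il18r1, Zfp608, and Cdc42ep3 (0.97 each), and for Btla Sh3bp5, S1pr1, and Pgap1 (0.99 to 0.98). Cd274 was closest to Shcbp1l, Lncbate10, and Klhl5 (0.95 each), and Pdcd1lg2 to Gm20755, Arhgap25, and Prex1 (0.95 each). Lag3 was closest to Gm46162, Dnaaf3, and Slc45a4 (0.96 to 0.95), Havcr2 to Rem2, Gm29811, and Lrrn2 (0.98 to 0.97), and Tigit to Gm40754, Gm30960, and Gm39041 (0.98 each).

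Of 15 ligands and counter-receptors, 11 had a region and 8 differed among tissues, where 35.5% of all genes did. In SI 4 were lower and 1 higher than the mean of the other 4 tissues (8.72% and 7.93% of all genes), and in BM 4 were lower and 1 higher (14.1% and 11.8%). Tnfsf14, which encodes the HVEM ligand LIGHT, had 147 and 150 CPM in pancreas and 55.0 and 73.7 in SI (1.20 ± 0.16, F test adjusted p = 4.7e-05). Nectin3, a ligand of TIGIT, was highest in LI (38.6 and 34.6) and lowest in SI (15.4 and 14.6), and Lgals3, a galectin, was highest in lung (36.1 and 41.3) and lowest in SI (15.2 and 8.0). Of 17 other co-receptors of the immunoglobulin, SLAM, and CD200 families, 13 had a region and 11 differed. Cd5 and Cd6 are also in the T cell list. BM was lower at 10 of the 13 co-receptors and higher at 0, where 14.1% and 11.8% of all genes were. The median log2 difference from the other tissues was -0.66 (a median over all genes of 0.0023). Cd160, whose product also binds HVEM, was highest in SI (45.6 and 60.8) and LI (49.2 and 49.8) and lowest in BM (12.2 and 9.33). Cd101 was highest in pancreas (144 and 145) and lowest in BM (74.5 and 73.4), and Cd2, an adhesion receptor, was highest in pancreas (43.6 and 45.8) and lowest in SI (10.0 and 6.78).

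Among 23 signalling molecules below these receptors, 22 had a region and 9 differed. The share of all genes that differed was 35.5%. BM was lower at 7 and higher at 3 (14.1% and 11.8% of all genes). Ptpn6, the phosphatase SHP-1, was at 53.6 and 36 CPM in SI and 26.1 and 20.3 in BM, whereas Akt2 was highest in BM (78.7 and 76.3) and Trat1, a transmembrane adaptor, likewise (21.5 and 22.9). Of 18 factors tied to checkpoint receptor expression and exhaustion, 17 had a region and 5 differed, no larger a share than the 35.5% of all genes. Irf4 was at 43.3 and 47.9 CPM in BM and 93.6 to 162 elsewhere, Nfatc1 at 155 and 156 in BM and 242 to 298 elsewhere, and Nfatc2 was highest in lung (183 and 216) and lowest in SI (123 and 103). These counts describe the lists, which were not tested as sets.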

How the data were processed

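The deposited table holds, per the labels and the methods of the study, raw read counts for merged ATAC-seq peaks in 10 libraries, with 2 libraries for each of 5 tissues. The authors aligned 150-base paired-end reads to mm10 with Bowtie2 (version 2.2.9), called peaks per library with MACS2 (version 2.1.1, q value 0.01), kept peaks found in both replicates, merged them across tissues with HOMER, and counted reads with bedtools. The removal of duplicates and the shift of reads for the transposase are not given in the sources used here. The counts were analysed as deposited. Total counts per library lay between 10282987 and 32797872. Replicates differed by more than counting noise, so depth alone did not set the precision.

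All 49981 regions with at least 1 count (58 had none) were fitted together with the edgeR (version 4.0.16) quasi-likelihood model in R (version 4.3.3), with TMM factors and tissue as the sole term. Tissues were compared by an F test, by contrasts with the mean of the other 4, and by 10 pairwise contrasts, each with Benjamini-Hochberg adjustment over all regions at a threshold of 0.05. For gene levels, counts were summed over the regions of each gene (19267 tested), a region counting for the gene that holds its centre. Thus 1 region of Icos, inside Gm34649, is not in the sum. The fit was also run on simulated counts with a common spread for all regions and tissues. The real tissues differ in the spread of their replicates, so that run does not show how the fit fares here. Libraries of a tissue come from pooled mice. The p-values rest on a spread between replicate libraries that is shared by all tissues (5 residual degrees of freedom). This shared spread is moderated towards that of other regions (11.64 prior degrees of freedom). By chi-square, replicates of LI and pancreas differed more than those of BM. Contrasts of LI or pancreas may thus look more precise than their own replicates, and those of BM less so. Each SE was derived from the log2 difference and its F statistic.

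Regions were named one by one when they were the promoter region with the most counts or were among the 5 with the smallest p past the F test for their gene. Up to 3 genes per pathway list were named by the smallest p. Regions given outside these rules (Icos +21.9, +44.6, and +124.3 kb, Tigit -0.9, -27.8, and -35.1 kb, Pdcd1lg2 +43.2 kb, and Lag3 +7.8 kb) were chosen after their values were seen. The members and lists were chosen with earlier results of these data known. Alternatives were library size or DESeq2 size factors as scaling, DESeq2 (version 1.42.0), a count minimum of 10, stricter thresholds, a correction for GC content and width, the replicate number as a block, other rules for the member genes, and each library left out. Sequences and gene models are from RefSeq for GRCm38, read with pysam (version 0.24.0). Sequences of the leading regions of the other 4 genes are not reported here.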

Additional observations from a re-analysis of the deposited data

How the results depend on the processing

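Of the 12 results across tissues, the 42 regions and 8 genes that differ among tissues, the 27 regions lower in BM, and the 0 lower in LI moved by no more than 1.5 times under any alternative run. The share of all regions lower in LI was small too (1.27% in the main fit and 2.84% with DESeq2), so a steady 0 does not set the members apart. Scaling by library size gave 13 higher in LI and 11 in SI (6.25% and 18.5% of all regions). Removing GC and width trends gave 14 higher in LI and 4 lower in pancreas (7.87% and 2.15%). At an adjusted p under 0.01, 3 were higher in BM, 12 in LI, 3 in lung, and 5 in pancreas, with 2 lower in lung and 1 in pancreas. With a log2 change of at least 1, 1 was higher in BM, 11 in LI, 2 in lung, and 5 in pancreas, with 3 lower in lung and 8 in SI. The stricter thresholds call fewer regions by construction. The shares of all regions at these thresholds are not given here, so these counts cannot be set against a background. The cause of the other moves was not tested. Leaving out each library gave 3 to 7 higher in BM, 6 to 31 in LI, 1 to 15 in lung, and 3 to 18 in pancreas, and 0 to 7 lower in lung and 0 to 3 in pancreas. The count minimum of 10 gave the same counts.

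The replicate deviations of 2 tissues correlated between -0.218 and 0.196, over 0.1 in 4 of 10 pairs. Those of pancreas were negative with BM (-0.0995), LI (-0.178), lung (-0.218), and SI (-0.131), and the other pairs lay between -0.0229 and 0.196. Whether some libraries were paired cannot be told from these values, and the main fit used no pairing. With the replicate block, 44 regions and 8 genes differed, and the difference between lung and BM at the Havcr2 promoter passed (0.79, adjusted p = 0.0439). Of 608 values of the 38 regions named one by one, 594 kept their direction and side of the threshold, 10 lost the call, 4 gained it, and 0 turned. Of the 35 F tests past the threshold, 31 passed without each library in turn. The weakest regions, at 10 reads in a library, limit what depth can show.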
